A study of Mus musculus with 4 samples.

Results

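The genes described here were 7 aquaporins (Aqp1, Aqp2, Aqp3, Aqp4, Aqp6, Aqp7 and Aqp11) and the vasopressin V2 receptor Avpr2, 8 of the 19609 gene rows used. They were chosen by name, and all 8 were followed through 23 clusters of nuclei in 4 mice. Single nucleus RNA sequencing (snRNA-seq) had been performed on kidney cortex of male mice of mixed strain, with 1 mouse for each of 4 conditions. All 4 mice carried the TRE-hKLF6 transgene, human KLF6 behind a tetracycline response element, and were fed doxycycline during the week before injury. The 2 control mice had no further transgene. The 2 hKLF6OE mice also carried CAG-rtTA, a doxycycline-dependent activator under a promoter active in most cell types, so that human KLF6 was induced throughout the body rather than in the tubule alone. In each genotype, 1 mouse received a single injection of 2 mg/kg aristolochic acid I (AAI), a plant toxin that forms DNA adducts in proximal tubule, and was killed 24 hours later, and the other received no AAI. The study's general methods give DMSO as the vehicle of AAI and DMSO alone as its control. The sample labels state no treatment for the mice without AAI, so whether they were injected with DMSO is not settled here. The age of the mice is not given in the sources used here. Values for the 4 mice are listed throughout in the order control, control + AAI, hKLF6OE, hKLF6OE + AAI.

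Aquaporins are membrane channels that let water, and for some of them glycerol or other small solutes, cross the cell membrane. AQP1 carries most of the water reabsorbed in the proximal tubule and thin descending limb, whereas in collecting duct principal cells water enters through AQP2 at the apical membrane and leaves through AQP3 and AQP4 at the basolateral membrane. Vasopressin acts on the V2 receptor of principal cells, raises cAMP, and moves vesicles holding AQP2 to the apical membrane, and over longer times it raises Aqp2 transcription. AQP6 sits in intracellular vesicles of type A intercalated cells, AQP7 is a glycerol-transporting channel of the straight proximal tubule, and AQP11 is an intracellular channel of the proximal tubule whose loss causes cysts in mice.

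In GRCm38, Aqp2 lies at chr15:99579055-99584547 on the plus strand, and Aqp6 (chr15:99601400-99605477, plus strand) follows it after a gap of 16.9 kb that contains Aqp5. Aqp3 (chr4:41092722-41098183) and Aqp7 (chr4:41033074-41048139) are neighbors on the minus strand of chromosome 4, separated by 44.6 kb. Aqp1 (chr6:55336432-55348555) and Avpr2 (chrX:73892102-73895502) are on the plus strand, and Aqp11 (chr7:97724006-97738289) is on the minus strand. All are protein-coding genes. Avpr2 is overlapped on the other strand by L1cam and Arhgap4, so its values could include reads of a partner if strand was not used in counting. The 250 bases before the RefSeq start (GRCm38.p6) are shown for the 3 collecting duct genes Aqp2, Aqp3 and Avpr2. They were chosen because, in CD_PC, Aqp2 and Aqp3 were highest in the hKLF6OE mouse without AAI and Avpr2 was not. In CNT, Aqp3 was highest in that mouse and Aqp2 was not. Capitals mark matches, on either strand, to GATAAG (a site of GATA factors), TGACG (a cAMP response element half-site) and CACCC (a site of the kind bound by Krüppel-like factors).
Aqp2, chr15:99578806-99579055, plus strand: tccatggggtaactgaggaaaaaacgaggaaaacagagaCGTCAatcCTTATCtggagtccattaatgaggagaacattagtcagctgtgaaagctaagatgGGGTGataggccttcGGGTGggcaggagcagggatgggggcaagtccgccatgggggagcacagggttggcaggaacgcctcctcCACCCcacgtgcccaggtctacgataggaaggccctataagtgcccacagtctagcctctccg
Aqp3, chr4:41098184-41098433, minus strand: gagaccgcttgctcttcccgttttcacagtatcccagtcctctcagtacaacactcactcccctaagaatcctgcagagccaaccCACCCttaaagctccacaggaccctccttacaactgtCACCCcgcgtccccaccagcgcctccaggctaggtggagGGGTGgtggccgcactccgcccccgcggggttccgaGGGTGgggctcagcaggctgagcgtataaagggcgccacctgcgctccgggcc
Avpr2, chrX:73891852-73892101, plus strand: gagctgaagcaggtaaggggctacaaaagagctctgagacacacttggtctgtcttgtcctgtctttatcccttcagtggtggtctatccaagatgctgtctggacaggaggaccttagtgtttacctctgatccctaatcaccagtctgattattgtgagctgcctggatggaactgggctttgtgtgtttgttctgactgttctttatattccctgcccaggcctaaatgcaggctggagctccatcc

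The Aqp2 window held 1 GATAAG, 203 bases before the start, 1 TGACG, 211 bases before it, and 3 CACCC, each counted to the first base of the match, and no matches overlapped. The Aqp3 window held 4 CACCC and no match to the other motifs, and the Avpr2 window held no match to any of the 3. Of 27025 promoter windows of the same length, 6.60% held GATAAG, 17.9% held TGACG and 51.3% held CACCC, so a CACCC match is common. Among the other genes, the windows of Aqp1, Aqp6 and Aqp11 held 3, 2 and 2 CACCC, and those of Aqp7 held 0 and 1. Aqp6 in IC-A was lower in each hKLF6OE mouse than in the control mouse of the same treatment. Aqp4, which was also highest in CD_PC of the hKLF6OE mouse without AAI, was not among the windows searched. A match describes the letters only, and a relation between matches and levels was not tested.

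Each deposited value is the mean over the nuclei of 1 cluster in 1 mouse, on a linear scale where all genes of a column sum to 10000, and is called the level below. The number of nuclei behind a column and their depth are not in the files used here, so no interval could be given. The percentage of genes at 0 ranged from 15.1% (PT-S3-1, control) to 63.4% (LH-AL-3, hKLF6OE; Macrophage, control + AAI), and small clusters give coarse levels. Cluster names were taken from the order of the study's marker lists and checked against markers. Of the 5 principal cell markers, all but Scnn1g, the epithelial sodium channel gamma subunit, were highest in CD_PC. The 3 type A intercalated markers (Slc4a1, Kit, Adgrf5) were highest in IC-A. LH-DL was less clear. The urea transporter Slc14a2 was highest there (mean 0.710) but was 0 in 2 of the 4 mice, Tshz2 was higher in MC (18.1 against 15.7), and the podocyte gene Wt1 stood at 4.40. The name LH-DL is kept as a label, and Aqp1 in LH-DL is counted below as a known segment on that label alone. The Macrophage cluster also held the endothelial gene Flt1 at 6.68.

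**Figure D1:**
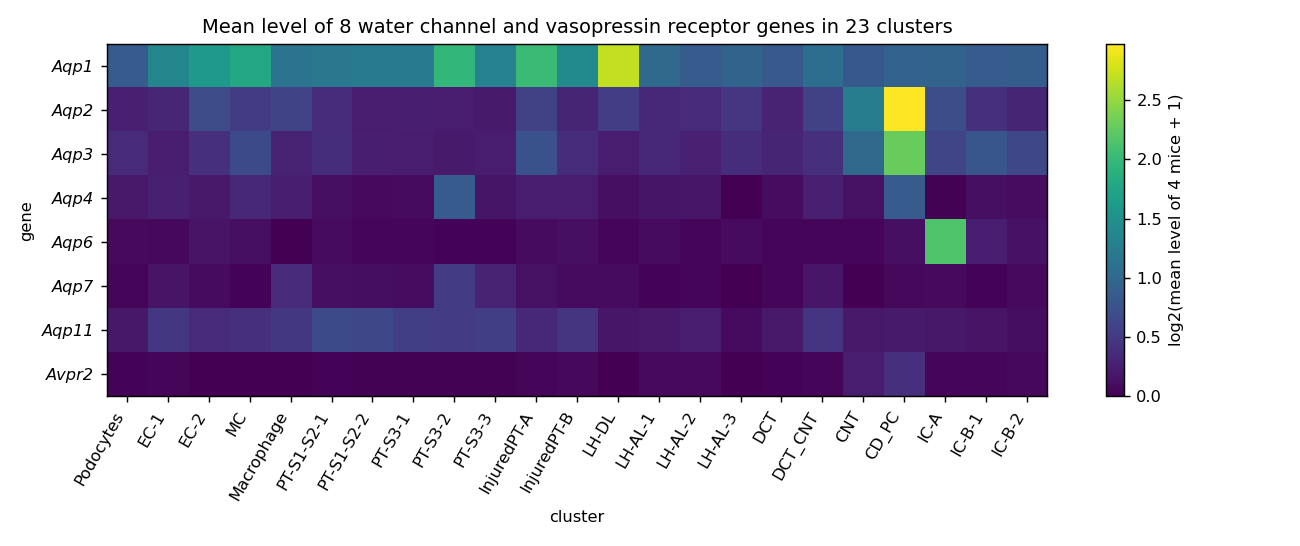
Mean level of the 8 genes over the 4 mice (color, log2(level + 1)) in 23 clusters ordered along the nephron, with genes in rows. Aqp2 and Aqp3 were brightest in CD_PC, Aqp6 in IC-A and Aqp1 in LH-DL (means 6.86, 3.87, 3.45 and 5.53), while Aqp1 was above 0.5 in all 23 clusters.

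Collecting duct principal cells held the highest level of Aqp2, the vasopressin-regulated apical water channel. In CD_PC its levels were 6.35, 5.47, 12.05 and 3.59. The hKLF6OE mouse without AAI was far above the others and the hKLF6OE mouse with AAI was the lowest. In CNT, the connecting tubule cluster upstream, they were 1.46, 1.59, 1.39 and 1.10, below CD_PC in 4 of 4 mice and much closer together. CD_PC held 44.9% of the Aqp2 level summed over cluster means, and the median cluster stood at 0.302.

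Aqp3, which lets water and glycerol out across the basolateral membrane, followed a similar course in CD_PC but not in CNT. Its levels in CD_PC were 2.80, 3.04, 6.91 and 2.73. The hKLF6OE mouse without AAI was again highest and the other 3 mice lay between 2.73 and 3.04. In CNT, Aqp3 was 0.680, 1.25, 1.67 and 0.545, also highest in the hKLF6OE mouse without AAI, and CD_PC was above CNT in 4 of 4 mice.

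On the log2(level + 1) scale, a gene was tested if the larger of its values was at least 0.5, and called higher or lower from a difference of 0.2. With 1 mouse per condition there is no replicate check of any such call. Between the mice without AAI, hKLF6OE minus control was 0.83 for Aqp2 and 1.06 for Aqp3 in CD_PC. Differences as large were found in 1.09% and 0.252% of the genes tested in CD_PC. Genes with levels near the minimum cannot reach such differences on this scale. These shares are therefore not shares among genes of like level, and rarity is not read from them. With AAI the genotype difference was -0.50 for Aqp2 and -0.12 for Aqp3, so Aqp2 was called in opposite directions and Aqp3 was called without AAI only. AAI minus no AAI was -1.51 for Aqp2 and -1.08 for Aqp3 in hKLF6OE mice, and -0.19 and 0.09 in control mice, neither of which was called. None of the 4 genes tested in both genotypes in CD_PC (Aqp1, Aqp2, Aqp3 and Aqp4) was called lower after AAI in both, as 8.54% of all genes tested there were.

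The same 2 genes varied between mice outside the collecting duct too. Averaged over the 5 normal proximal tubule clusters, Aqp2 stood at 0.168, 0.213, 0.309 and 0.108. Aqp3 stood at 0.188, 0.214, 0.295 and 0.108. Both were highest in the hKLF6OE mouse without AAI and lowest in the hKLF6OE mouse with AAI, in cells that should lack these channels. The Aqp2 level in CD_PC was 37.9, 25.6, 38.9 and 33.4 times that in normal proximal tubule. This ratio varied 1.52-fold over the mice whereas the CD_PC level varied 3.36-fold. For Aqp3 the ratio was 14.9, 14.2, 23.4 and 25.3, a 1.78-fold range against 2.53-fold for the level. Of the 5 principal cell markers in normal proximal tubule, Scnn1b and Hsd11b2 were also highest in the hKLF6OE mouse without AAI (Hsd11b2 at 0.157, 0.280, 0.321 and 0.203), whereas Scnn1g (0.0523, 0.0634, 0.0492 and 0.0819) and Mgat4c (0.0331, 0.0380, 0.0194 and 0.0247) were lowest in that mouse. Fxyd4 was lowest in the hKLF6OE + AAI mouse. The part of this proximal tubule level in the CD_PC differences was not tested.

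**Figure D2:**
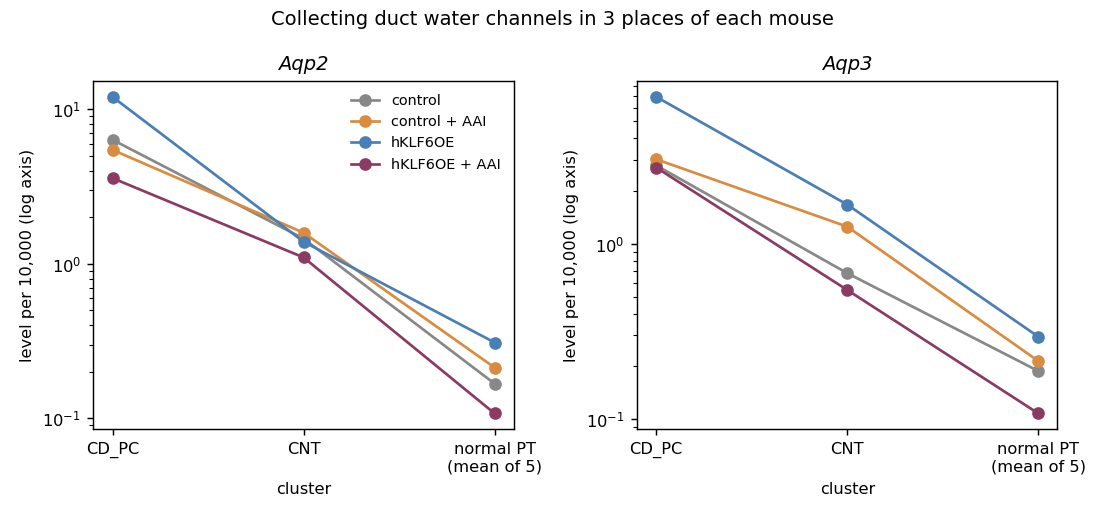
Level of Aqp2 (left) and Aqp3 (right) on a log axis in CD_PC, CNT and the mean of 5 normal proximal tubule clusters, with 1 line per mouse. The hKLF6OE mouse without AAI was highest in CD_PC (12.05 for Aqp2 and 6.91 for Aqp3) and also in normal proximal tubule (0.309 and 0.295), and the hKLF6OE + AAI mouse was lowest in both places.

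Of the 5 principal cell markers in CD_PC, Hsd11b2 was also highest in the hKLF6OE mouse without AAI and the other 4 were not. The sodium channel subunit Scnn1b was 9.64, 8.68, 7.52 and 8.82 in CD_PC and Scnn1g was 4.84, 4.31, 3.85 and 3.96. Both were lowest in the hKLF6OE mouse without AAI, where Aqp2 was highest. Hsd11b2, which inactivates glucocorticoids in aldosterone target cells, was 6.07, 5.09, 7.35 and 5.50, highest in that mouse. Fxyd4, a regulator of the sodium pump, was 1.54, 2.59, 2.31 and 1.97, and the glycosyltransferase gene Mgat4c was 12.9, 26.3, 10.3 and 24.02, higher in both AAI mice. 

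Aqp4, the other basolateral channel, had levels of 0.618, 0.624, 1.24 and 0.730 in CD_PC. It too was highest in the hKLF6OE mouse without AAI, by 0.47 over control on the log2 scale. AAI minus no AAI was -0.38 in hKLF6OE mice and 0.01 in control mice. Unlike Aqp2 and Aqp3, it was lowest in normal proximal tubule of that mouse (0.202, 0.366, 0.134 and 0.201). Aqp1, which principal cells are not known for, read 0.744, 0.741, 1.45 and 0.731 in CD_PC, also highest in the same mouse.

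Avpr2, the receptor that passes the vasopressin signal to cAMP, was low but placed where it is known to act. Its levels in CD_PC were 0.534, 0.347, 0.247 and 0.205, the highest of all clusters in each mouse. Control mice were above hKLF6OE mice, opposite to Aqp2 without AAI. In CNT, the levels were 0.269, 0.0111, 0.241 and 0.156, and the control + AAI mouse was far below the other 3. Normal proximal tubule averaged 0.00907 to 0.0212. Avpr2 passed the minimum in CD_PC only through the control mouse, and was called lower in hKLF6OE than in control without AAI (-0.30). Differences as large were found in 35.3% of genes tested there, and nothing is read from this call. Avpr2 was at 0 in 36 of the 92 columns, and in the 3 ascending limb clusters, where the receptor is also known, it averaged 0.0271 to 0.0418 over the mice.

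**Figure D3:**
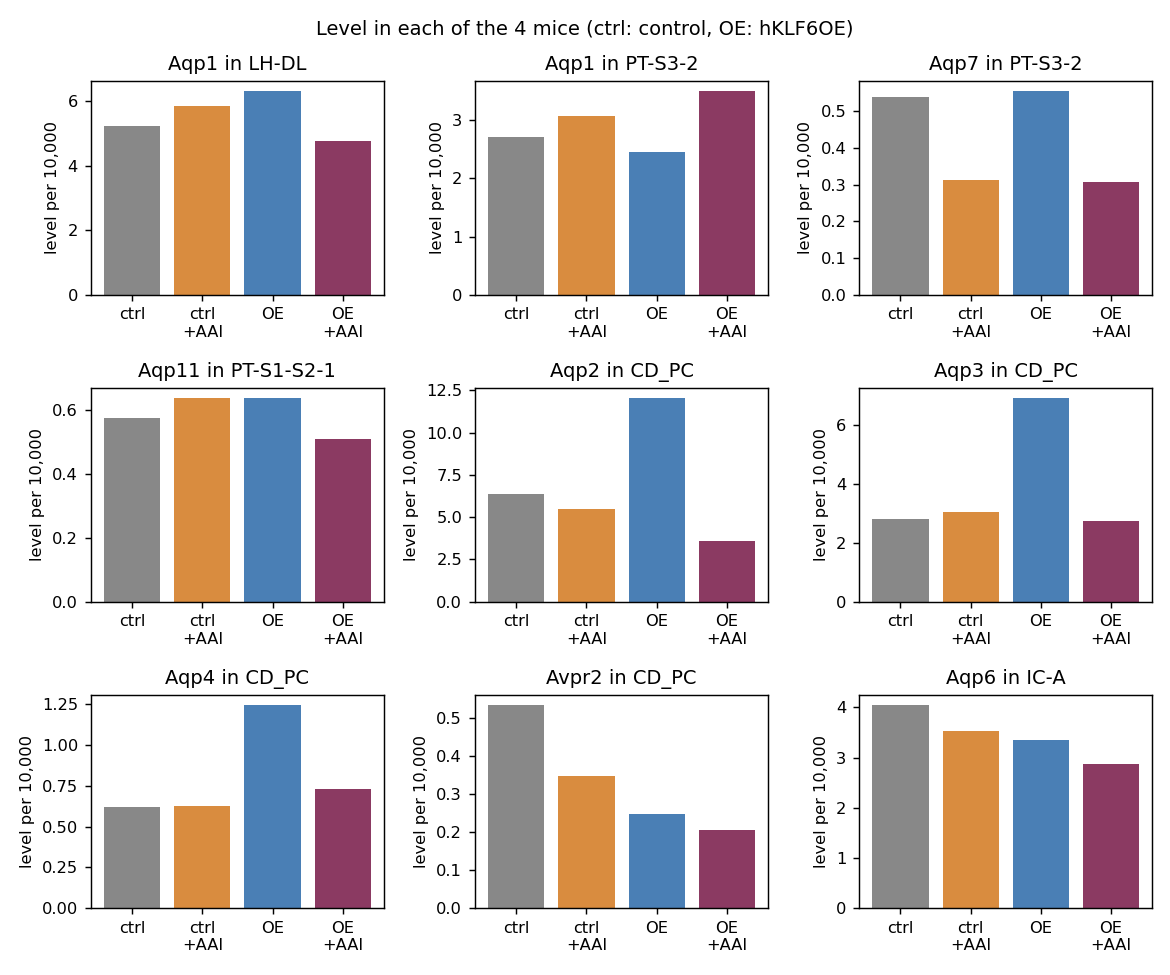
Level of each gene in a cluster of its known segment, 1 bar for each of the 4 mice (ctrl, control; OE, hKLF6OE). Aqp2, Aqp3 and Aqp4 in CD_PC were highest in the hKLF6OE mouse without AAI (12.05, 6.91 and 1.24), Avpr2 in the control mouse (0.534), and Aqp7 in PT-S3-2 was lower in both AAI mice (0.313 and 0.308) than in the mice without AAI (0.538 and 0.555).

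Compared per kb of genomic span, because reads over introns were counted as well as exons, mean levels in CD_PC were 1.25 for Aqp2, 0.708 for Aqp3, 0.0981 for Avpr2 and 0.0374 for Aqp4. Aqp2 was above Aqp3, Aqp3 above Avpr2 and Avpr2 above Aqp4 in each of the 4 mice. Before division by span, Aqp4 was above Avpr2 in each of the 4 mice (means 0.804 and 0.333), so the order of these genes depends on the division. Whether levels scale with span in these data was not tested, so neither order is preferred. In IC-A, Aqp6 reached 0.847 per kb, and in LH-DL Aqp1 reached 0.456 per kb.

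Aqp6, the intracellular channel of acid-secreting cells, was found mainly in IC-A. Levels there were 4.05, 3.54, 3.35 and 2.88. Each AAI mouse was below the mouse of its genotype without AAI, and each hKLF6OE mouse was below the control mouse with the same treatment. IC-A held 73.0% of the summed cluster means, and the next cluster, IC-B-1 of type B intercalated cells, averaged 0.177. AAI minus no AAI was -0.15 in control and -0.17 in hKLF6OE mice on the log2 scale, and neither was called. The genotype difference was -0.21 without AAI and -0.23 with AAI, and centring on the median gene put the first of these at -0.18, under the threshold. Before centring, Aqp6 was the 1 gene of 4 tested in IC-A that was called lower in hKLF6OE under both treatments, where 7.92% of all genes tested were. Aqp2 and Aqp3 in IC-A were far lower, with means of 0.624 and 0.536. The genomic neighbor of Aqp6, Aqp2, did not share its cluster pattern (Pearson r = 0.05 over 92 columns).

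Aqp1, the constitutive water channel, was the most widely detected of the 8 genes. It was above 0 in all 92 columns, and its lowest cluster mean was 0.771, in CNT. In LH-DL it was 5.21, 5.83, 6.30 and 4.76, the highest cluster in each mouse. By mean over the mice, InjuredPT-A followed with 3.94, 2.85, 3.53 and 1.96, and then PT-S3-2 with 2.71, 3.07, 2.46 and 3.49. Only in PT-S3-2 was the hKLF6OE + AAI mouse the highest of these. The mesangial-labelled cluster MC (mean 2.47) and the endothelial cluster EC-2 (mean 2.05) came next, and endothelium of the vasa recta is known to carry AQP1. Of the 22 neighboring pairs of clusters in the order of means, only LH-DL over InjuredPT-A held in all 4 mice. The order below the top cluster is therefore not settled. The study found the injured clusters almost only in mice given AAI. In both AAI mice, Aqp1 in InjuredPT-A was below PT-S3-2. Its place above PT-S3-2 by mean rests on the mice without AAI. In those mice, 62.6% (control) and 40.8% (hKLF6OE) of genes in InjuredPT-A were at 0.

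Averaged over the 5 normal proximal tubule clusters, Aqp1 was 1.502, 1.85, 1.66 and 1.71. PT-S3-2 was above the other 4 clusters in each mouse. Cluster levels went both ways after AAI. In the straight-segment cluster PT-S3-3, Aqp1 was 1.26, 1.79, 1.25 and 1.68, higher after AAI in control by 0.31 and in hKLF6OE by 0.25 on the log2 scale. It was the only one of the 8 genes tested in PT-S3-3 in both genotypes, and 14.9% of all genes tested there were higher in both. In PT-S1-S2-1, a convoluted-segment cluster, Aqp1 was 1.19, 1.30, 1.68 and 0.970. AAI minus no AAI there was 0.07 in control mice and -0.44 in hKLF6OE mice. In PT-S1-S2-2 the levels were 1.21, 1.51, 1.51 and 1.18, and in PT-S3-1 they were 1.14, 1.58, 1.41 and 1.23.

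PT-S3-2 carried the late proximal tubule marker Cyp7b1, an oxysterol hydroxylase, at a mean of 41.2 against 8.40 in the next cluster, and it stood out for 2 further water channels. Aqp7 was 0.538, 0.313, 0.555 and 0.308 there. Both AAI mice were below both mice without AAI, and the genotypes were nearly equal within each treatment. AAI minus no AAI was -0.23 in control and -0.25 in hKLF6OE mice. Aqp7 passed the minimum only through the mice without AAI, so that both calls follow in part from the filter. Aqp7 in PT-S3-3 went the other way, at 0.124, 0.284, 0.154 and 0.332, but these levels were under the minimum. Averaged over the 3 PT-S3 clusters, Aqp7 was 0.245, 0.220, 0.266 and 0.233, closer together than in PT-S3-2 alone.

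Aqp4 in PT-S3-2 was 0.803, 1.27, 0.468 and 0.710, as high as in CD_PC (means 0.813 and 0.804). AAI mice were above the mice of the same genotype without AAI, and control mice were above hKLF6OE mice of the same treatment. On the log2 scale, AAI minus no AAI was 0.33 in control and 0.22 in hKLF6OE mice, and hKLF6OE minus control was -0.30 without AAI and -0.41 with AAI. No other normal proximal tubule cluster averaged above 0.120. Of the 3 genes tested in both genotypes in PT-S3-2 (Aqp1, Aqp4 and Aqp7), Aqp4 was called higher and Aqp7 lower after AAI in both, beside 6.17% of all genes higher and 7.18% lower, and nothing is read from the count for Aqp7. Aqp4 was also 1 of 2 genes tested in both treatments, and was lower in hKLF6OE in both, as were 1.75% of all genes tested. The hKLF6OE mouse without AAI was under the minimum for Aqp4 (0.468). Its AAI call in hKLF6OE mice and its genotype call without AAI therefore passed only through the higher mouse. These calls follow in part from the filter, and nothing is read from the counts for Aqp4. Aqp4 and Aqp7 were both low here. Aqp4 (chr18:15389496-15410982, minus strand, protein-coding) is overlapped by the antisense gene AC133525.2, whose reads may be counted with it.

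Aqp11, the intracellular channel, was spread evenly over the normal proximal tubule. In PT-S1-S2-1 it was 0.576, 0.636, 0.637 and 0.510, and in PT-S1-S2-2 it was 0.527, 0.561, 0.607 and 0.550. The mice overlapped closely in both. In PT-S3-1 it was 0.469, 0.519, 0.604 and 0.292, with the hKLF6OE + AAI mouse lowest. Averaged over the 5 normal clusters it was 0.474, 0.537, 0.580 and 0.433. The 3 ascending limb clusters averaged 0.133. Other clusters came closer, with means of 0.397 in EC-1, 0.396 in Macrophage and 0.361 in DCT_CNT, so Aqp11 was not confined to the proximal tubule. In Macrophage it ran from 0 in the control + AAI mouse to 1.23 in the hKLF6OE + AAI mouse.

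**Figure D4:**
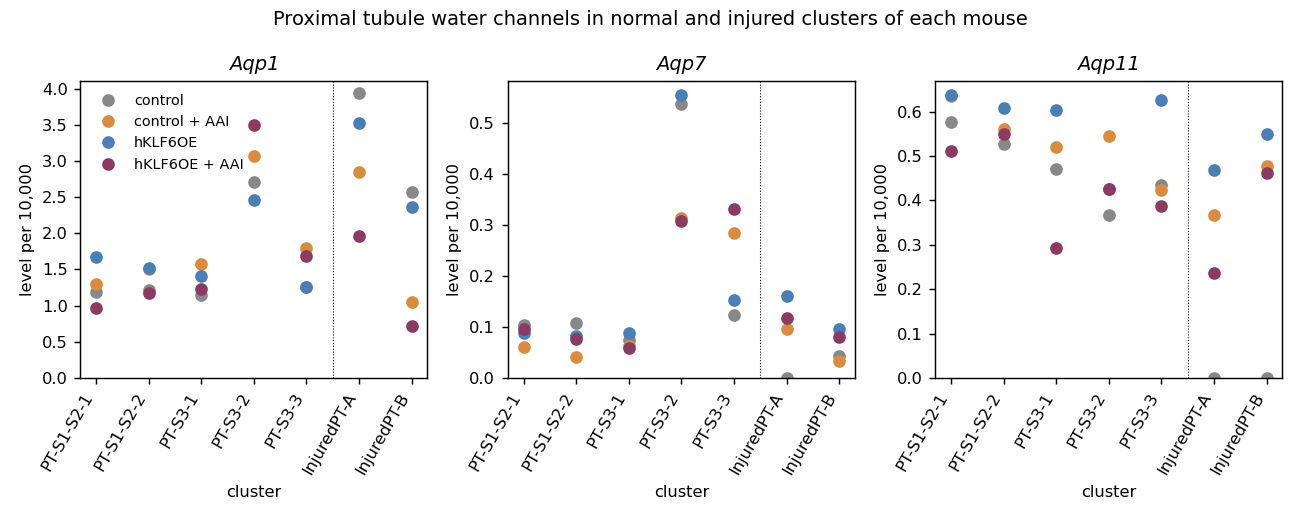
Level of Aqp1, Aqp7 and Aqp11 in the 5 normal proximal tubule clusters (left of the dotted line) and the 2 injured clusters (right), with 1 point per mouse. Aqp1 in InjuredPT-B was 1.06 and 0.716 in the AAI mice against 2.57 and 2.36 in the mice without AAI, and Aqp7 was highest in PT-S3-2 in all but the hKLF6OE + AAI mouse.

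Within each AAI mouse, the injured clusters were compared with the average level of its 5 normal proximal tubule clusters. In InjuredPT-A, Aqp1 was 2.85 against 1.85 in the control + AAI mouse and 1.96 against 1.71 in the hKLF6OE + AAI mouse. The log2 differences were 0.44 and 0.12, so Aqp1, the 1 gene of the 8 that was tested in both mice, was not called in both. Of all genes tested, 43.3% were higher and 27% lower in both mice. In InjuredPT-B, Aqp1 was 1.06 against 1.85 and 0.716 against 1.71, with log2 differences of -0.47 and -0.66. Aqp1 was called lower in both mice there, as were 13.1% of all genes tested, while 23.4% were higher. Both injured levels were below the lowest normal cluster of the same mouse, 1.30 and 0.970. The median over all genes tested was 0.19 and 0.15 in InjuredPT-A and 0.11 and 0.10 in InjuredPT-B, above 0 in each mouse, so Aqp1 in the hKLF6OE + AAI mouse of InjuredPT-A stood below the median gene.

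The other water channels of the proximal tubule were low in the injured clusters. Aqp7 was 0.0966 and 0.118 in InjuredPT-A and 0.0339 and 0.0803 in InjuredPT-B, within or below the normal range of the same mouse. Aqp11 was 0.368 and 0.236 in InjuredPT-A, below the lowest normal cluster (0.424 and 0.292), and 0.477 and 0.461 in InjuredPT-B, inside the normal range. Aqp4 was 0.157 and 0.148 in InjuredPT-A. In the mice without AAI, the injured clusters had 40.8% to 62.6% of genes at 0, against 22.2% to 29.7% in AAI mice, so their levels there rest on coarser values.

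Over the 25 pairs of gene and known segment, calls in each contrast were counted beside all genes tested in the same clusters. After AAI in control mice, 18 pairs passed the minimum, 3 were higher and 1 lower, with 24% of all gene and cluster pairs higher and 23.7% lower. After AAI in hKLF6OE mice, 17 passed, 2 were higher and 10 lower, with 28.8% and 25% of all pairs. The pairs called lower in hKLF6OE mice were Aqp2, Aqp3 and Aqp4 in CD_PC, Aqp3 in CNT, Aqp1 in LH-DL and both PT-S1-S2 clusters, Aqp7 in PT-S3-2 and Aqp11 in PT-S3-1 and PT-S3-3. Of these, the Aqp7 pair and both Aqp11 pairs passed the minimum only through the mouse without AAI. Aqp11 was 0.604 against 0.292 in PT-S3-1 and 0.626 against 0.388 in PT-S3-3. The 1 lower pair in control mice, Aqp7 in PT-S3-2, passed in the same way. These calls follow in part from the filter.

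Between genotypes without AAI, 18 pairs passed, 6 were higher in hKLF6OE and 2 lower (Aqp6 in IC-A, and Avpr2 in CD_PC, which passed only through the control mouse), with 19.5% and 25% of all pairs. With AAI, 16 passed, 0 were higher and 9 lower, with 19.5% and 22.1% of all pairs. Aqp11 in PT-S3-1 was among the 9 and passed only through the control + AAI mouse (0.519 against 0.292). The median log2 difference of the pairs that passed was 0.15 without AAI and -0.21 with AAI, against -0.03 and -0.01 over all gene and cluster pairs. The contrasts share mice: the hKLF6OE mouse without AAI enters the contrast of AAI in hKLF6OE and that of genotype without AAI. The pairs are not independent, since clusters of 1 mouse share a library.

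**Figure D5:**
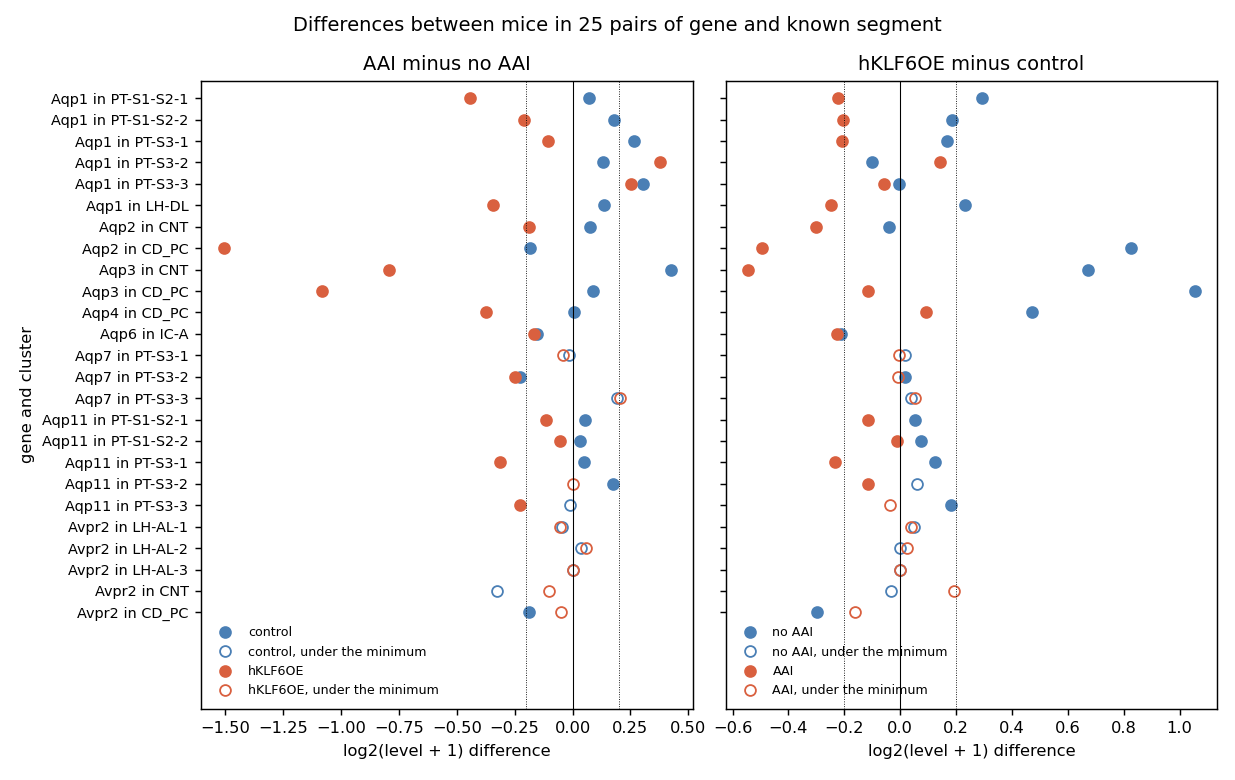
Difference in log2(level + 1) for 25 pairs of gene and known segment, AAI minus no AAI (left) and hKLF6OE minus control (right). Filled points passed the minimum of 0.5, open points did not, and dotted lines mark 0.2 in each direction. Aqp2 and Aqp3 in CD_PC lay at -1.51 and -1.08 after AAI in hKLF6OE mice and at 0.83 and 1.06 for genotype without AAI.

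Genes of water balance other than the 8, in 7 lists covering vasopressin signaling, AQP2 trafficking and principal cell regulators, were followed in CD_PC. Of 63 with a row, 42, 41, 40 and 42 passed the minimum in AAI in control, AAI in hKLF6OE, genotype without AAI and genotype with AAI. After AAI in control mice 9 were higher and 10 lower, with 25.3% and 24% of all genes tested in CD_PC. After AAI in hKLF6OE mice 17 were higher and 6 lower, with 34.6% and 27%. In hKLF6OE against control 8 were higher and 15 lower without AAI, with 21.8% and 33.3%, and 12 higher and 10 lower with AAI, with 23% and 26.6%. Their median log2 differences were -0.01, 0.12, -0.12 and 0.02, against 0.01, 0.06, -0.07 and -0.02 over all genes.

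Downstream of the receptor, Gnas, the stimulatory G protein subunit, was the highest gene of the cAMP list in CD_PC, at 2.51, 2.59, 3.30 and 2.05. Like Aqp2, it was highest in the hKLF6OE mouse without AAI and lowest in the hKLF6OE + AAI mouse. Outside principal cells Gnas was also highest in the hKLF6OE mouse without AAI, at 1.74 in PT-S3-2, 2.37 in CNT, 3.63 in IC-A and 3.98 in LH-DL. Adenylyl cyclase Adcy6 was 1.28, 0.939, 1.11 and 0.965, lower in both AAI mice. Of the 12 genes of this list, 10 passed in control mice, 1 higher (Prkaca) and 1 lower (Adcy6) after AAI, beside 25.3% and 24% of all genes. In hKLF6OE mice 9 passed, 3 higher (Akap7, Akap13 and Creb1) and 1 lower (Gnas), beside 34.6% and 27%. The prostaglandin receptor gene Ptger1 led the list of other receptors at 0.667, 0.973, 0.610 and 0.138.

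Among 20 AQP2 trafficking genes with a row, the chaperone Hspa8 was highest in CD_PC, at 3.71, 2.95, 6.42 and 2.33, the same order of mice as Aqp2. It was highest in the hKLF6OE mouse without AAI outside principal cells too, at 4.06 in PT-S3-2, 4.97 in CNT, 6.20 in IC-A and 6.62 in LH-DL. The vesicle SNARE Vamp2 was 0.740, 0.218, 0.246 and 0.635, a different course. Of 16 that passed, 7 were higher and 3 lower (Rab7, Rab11a and Hspa8) after AAI in hKLF6OE mice, beside 34.6% and 27% of all genes. In control mice 16 passed, 2 were higher (Rab11a and Rhoa) and 6 lower, beside 25.3% and 24%. Among ubiquitin ligases, Nedd4l, which removes sodium channels from the membrane, was 19.1, 19.3, 19.7 and 17.3, nearly level. The ligase scaffold Cul5 was 0.665, 1.28, 1.04 and 1.64, higher after AAI in both genotypes.

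Transcription factors of principal cells differed mostly in the contrast of genotype without AAI. Tfcp2l1, needed for the patterning of collecting duct cell types, was 16.1, 10.9, 9.10 and 11.23. It was highest in the control mouse and lowest in the hKLF6OE mouse without AAI. Outside principal cells Tfcp2l1 was also highest in the control mouse, at 10.6 in CNT, 23.5 in IC-A, 4.37 in LH-DL and 1.18 in PT-S3-2. It was lowest in the hKLF6OE mouse without AAI in CNT and LH-DL, but not in IC-A or PT-S3-2. Its mean was higher in IC-A (22.1) than in CD_PC (11.8). The epithelial factor Ehf was 1.92, 2.27, 1.18 and 2.39 in CD_PC, lowest in the hKLF6OE mouse without AAI. Of the 7 factors that passed in hKLF6OE against control without AAI, 1 was higher (Hoxd8) and 5 lower (Ehf, Gata2, Gata3, Tfcp2l1 and Nfat5), beside 21.8% and 33.3% of all genes tested in CD_PC, and Aqp2 was higher. With AAI, 8 passed, 0 were higher and 2 lower (Elf5 and Gata2), beside 23% and 26.6%, and Aqp2 was lower too. The taurine transporter Slc6a6, an osmolyte carrier, was 2.41, 3.03, 2.24 and 1.82.

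Aquaporins outside the 8 were nearly undetected. The highest cluster mean was 0.0296 for Aqp8, 0.206 for Aqp9 and 0.0569 for Aqp12, none of which reached 0.5 in any cluster mean. Aqp5 and Mip had no row among the genes used.

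The pattern of each gene over the 92 columns was compared with 8112 genes whose highest cluster mean was at least 0.5. The correlations are descriptions, because the 23 columns of a mouse share a library and depth and clusters were built from the same values. For Aqp2 the most alike were Spock3 (r = 0.88), Gprc5b (0.88) and Hsd11b2 (0.87). Aqp3 was most like Aqp2 (0.85), followed by Hsd11b2 (0.83). Avpr2 was most like Col26a1 (0.85), A930017K11Rik (0.83) and Fanca (0.82), all highest in CD_PC. Aqp6 was most like Dmrt2 (0.96), Gm34240 (0.96) and Pdlim3 (0.93), all highest in IC-A.

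Proximal tubule genes had weaker matches. Aqp7 was most like Gm3137 (r = 0.76), Gm26697 (0.70) and Mpped1 (0.68), all highest in PT-S3-2. Aqp4 was most like Cyp7b1 (0.63), Frem2 (0.61) and Gm33472 (0.60), of which Frem2 was highest in CD_PC and the others in PT-S3-2. Aqp11 was most like Hsd3b2 (0.74), Anapc15 (0.74) and the brush border gene Vil1 (0.74). Aqp1 was most like Gstm1 (0.73), Mpdz (0.72) and Pde5a (0.69), highest in MC, LH-DL and LH-DL.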

How the data were processed

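Nuclei of kidney cortex were processed with the 10X Chromium system. The submitters' processing notes name Cell Ranger, Seurat and mm10, and the study aligned reads to a pre-mRNA reference. The deposited table holds 1 signal value per gene, cluster and mouse, which the authors averaged over nuclei on a linear scale where each column sums to 10000, and neither the averaging function nor any removal of doublet nuclei from these libraries is given in the sources used here. Of 19632 rows, 23 with date-like names were left out. Differences are log2(level + 1), with a minimum of 0.5 for the larger value and a threshold of 0.2, called with Python 3.11.15, numpy 2.4.6 and pandas 2.3.3 and tested on simulated data. With 1 mouse per condition no p-value was computed. Members and gene lists were chosen with earlier results of these data known. Text outside the 8 genes names, for each gene, the 3 most alike by Pearson r, for each list the highest in CD_PC and the largest AAI differences, cell type markers beside the cluster they check, and the remaining aquaporins. A gene that this rule names is not reported here. Genes named beside a count of calls in a list, outside this rule, were chosen after their values were seen. Positions are from GENCODE M21 (GRCm38) and promoters from RefSeq.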

Additional observations from a re-analysis of the deposited data

Results flagged for a closer look

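A difference between groups was marked where both mice pairs of a contrast were called and moved in opposite directions. None was tested, since each condition has 1 mouse. In CNT, Aqp3 changed with AAI by 0.42 in control and -0.79 in hKLF6OE mice, and with genotype by 0.67 without AAI and -0.54 with AAI, and the difference between the effects was -1.22 on the log2 scale either way. In CD_PC, the genotype effect on Aqp2 was 0.83 without AAI and -0.50 with AAI, a difference of -1.32. For Aqp1 the genotype effect was 0.29 and -0.22 in PT-S1-S2-1, a difference of -0.51, and 0.23 and -0.25 in LH-DL, a difference of -0.48. In each of the 4 pairs of gene and cluster the hKLF6OE mouse without AAI had the highest level and the hKLF6OE + AAI mouse the lowest.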

How the results depend on the processing

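No paired analysis was possible because each condition has 1 mouse. No called difference in a known segment changed direction with a pseudocount of 0.1, centring on the median gene or rescaling without mitochondrially encoded genes. Counts of members called in known segments were 4 and 12 for AAI in control and in hKLF6OE mice and 8 and 9 for genotype without and with AAI. They fell to 0, 4, 4 and 3 with a minimum of 2, to 0, 3, 3 and 1 with a threshold of 0.5, and to 0, 2, 1 and 0 with a threshold of 1, fewer by construction, and a pseudocount of 0.1 gave 8 for AAI in control mice. Counts of water balance genes in CD_PC, 19, 23, 23 and 22 in that order, fell to 6, 9, 9 and 5 with a minimum of 2, to 2, 5, 3 and 2 with a threshold of 0.5, and to 0, 1, 0 and 0 with a threshold of 1, and a pseudocount of 0.1 gave 31 for AAI in control mice. With no filter, members called in the injured clusters numbered 1 in InjuredPT-A (Aqp3, higher) and 2 in InjuredPT-B (Aqp1 and Aqp4, lower). In InjuredPT-B the call of Aqp1 was lost with a minimum of 2, a threshold of 0.5 or a threshold of 1 (0 calls). PT-S3-2 ranked 4 for Aqp4 in the hKLF6OE mouse, 2 in the hKLF6OE + AAI mouse and 2 over the mice without AAI, and 3 for Aqp7 in the hKLF6OE + AAI mouse. PT-S1-S2-1 ranked 4 for Aqp11 in the hKLF6OE + AAI mouse. Of the 3 genes most like a member, a pseudocount of 0.1 kept 1 for Aqp2 and 1 for Aqp4, and cluster means kept 1 for Aqp2, 1 for Aqp3, 1 for Aqp7 and 0 for Aqp11. Centring put Aqp6 in IC-A (-0.18, genotype without AAI) and Aqp1 in PT-S3-3 (0.19, AAI in hKLF6OE) under the threshold. Depth per cluster is unknown and limits all low levels, Avpr2 and Aqp7 most.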
